A study of Mus musculus with 12 samples.

Results

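Long noncoding RNA (lncRNA) genes were followed in mouse bone marrow-derived macrophages (BMDMs) treated with activin A, its antagonist follistatin, or both. The 298 genes described here were selected on their annotation and their level: their Ensembl biotype was lincRNA (109 genes), antisense (81), processed_transcript (77), bidirectional_promoter_lncRNA (21), sense_intronic (8) or sense_overlapping (2), and their normalized count averaged at least 50 over the 12 libraries. They were 298 of the 18376 genes listed and of 1849 lncRNA genes listed, and 10634 genes in all reached the same level. The cells were grown from bone marrow progenitors of adult male wild type C57BL6/J mice, and all 4 groups received 50 ng/ml M-CSF, the growth factor that drives macrophage formation. CTRL had no further treatment, Act had 50 ng/ml activin A, FST had 250 ng/ml FST288, a follistatin form that traps activin A before it reaches its receptors, and Act+FST had both, each for 6 days and with 3 libraries. Whether the 3 libraries of a group came from separate mice or cultures was not given in the sources used here, so p-values measure the spread between these libraries, which may be technical.

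An lncRNA is a transcript that has no long open reading frame and acts, where a role is known, as RNA. Some stay in the nucleus and hold proteins together on chromatin or in nuclear bodies, some are transcribed from the strand opposite a coding gene, and some are carriers whose introns or exons are cut into small nucleolar RNAs (snoRNAs) or microRNAs (miRNAs). For others only the transcription itself is known. Activin A, a TGF-β family ligand, signals through SMAD2 and SMAD3, transcription factors that bind short DNA motifs beside lineage-determining factors of the cell. In macrophages, lncRNAs are known as markers of cell state because many are transcribed in few cell types, and several have been described in inflammatory responses. Their abundance is usually below that of mRNAs.

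The lncRNAs were present in every library, with the lowest single value being 18. Their mean normalized count had a median of 97.5, a lower quartile of 66.0 and an upper quartile of 153, and 49 genes reached 200 and 11 reached 500. The highest means, which also grow with transcript length, belonged to Malat1 (1974), Oip5os1 (1833), Neat1 (1595), Gm37494 (1341) and Firre (863). Malat1 is a nuclear speckle RNA, Neat1 is the scaffold of paraspeckles, Oip5os1 (Cyrano) is known to direct decay of the miRNA miR-7, and Firre organizes chromatin contacts. Per kilobase of exon, which adjusts for length only, the median was 40.1 normalized counts. It was 92.7 for the 10219 protein-coding genes that also averaged at least 50. Gm10134 stood highest of the lncRNAs by this measure at 686 per kilobase, while Malat1 reached 283 and Neat1 76.8. The highest density of any gene was 883 per kilobase, and whether values of dense genes are compressed was not tested. Just inside the level of 50 lay 9330020H09Rik (50.0), Gm13563 (50.1) and Jpx (50.1), and just outside lay 5830408C22Rik (49.8), Gm11110 (49.6) and Epb41l4aos (49.3). Since these levels chose the genes, they are given as a description. Without the 3 Act libraries, 9 genes would have had a mean under 50, namely Bach2os, Gm26982, Gm15503, E230029C05Rik, 4632427E13Rik, Jpx, A930007I19Rik, 5330438D12Rik and Gm42664.

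All 8 macrophage markers examined had high means, from 581 for Itgam to 3346 for Csf1r, while the B cell markers averaged 4.17 to 6.00 and, of the T cell markers in the table, Cd3d averaged 0.333 and Cd4 627. Neutrophil markers averaged from 5.75 for Ly6g to 208 for S100a9, and endothelial markers from 17.3 for Cdh5 to 184 for Kdr. The mast cell marker Kit averaged 41.7. The sum of Cd3d and Cd4, which was nearly all Cd4, ranged from 393 to 494 in Act and from 612 to 700 in CTRL. Summed monocyte markers (Ly6c2, Ccr2 and Plac8) ranged from 995 to 1056 in Act and from 332 to 702 in CTRL, and summed proliferation markers (4 of 4 detected) from 1228 to 1328 in Act and from 1936 to 2343 in CTRL. The proliferation sums ranged from 1566 to 4081 in Act+FST and from 1686 to 2329 in FST. Summed fibroblast and stromal genes (5 of 6 in the table, with Pdgfra averaging 0.5) ranged from 12 to 200 in Act and from 3 to 55 in CTRL. The part of these shifts in the lncRNA changes was not tested, and in bulk libraries fewer cells of a type and less RNA per cell cannot be told apart. The deposited values were already scaled, with totals of 5643708 to 5955400 normalized counts per library. The 298 lncRNAs took between 0.724% and 0.865% of these totals, with a median of 0.799% in Act, 0.837% in CTRL, 0.805% in Act+FST and 0.817% in FST, and the groups overlapped.

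The first comparison asked which lncRNAs activin A changed. Of the 298 lncRNAs, 5 were higher and 7 were lower in Act than in CTRL by at least 2-fold at a limma adjusted p of at most 0.05, which are called differentially expressed genes (DEGs) here. These were 1.68% and 2.35% of the lncRNAs, where the same rule called 2.58% and 3.09% of the 14318 genes tested, and 1.52% and 1.9% of the 10634 genes that averaged 50 or more. The 298 include the 9 genes named above that met the level of 50 only through their Act libraries, an entry that favours rises. Bach2os, among the 5 higher here and in the later comparisons, is such a gene. At the adjusted p alone, 22 lncRNAs were higher and 41 lower, beside 11.5% and 10.4% of the genes with that mean, and 39 and 65 with the replicate number as a block, beside 18.6% and 16.2%. The lncRNAs had a median log2 fold change of -0.05 and a median absolute change of 0.22, against 0.004 and 0.14 over all genes tested. Among lncRNAs and coding genes of the same level (means of 50 to 200, 249 and 2409 genes), the median absolute change was 0.222 and 0.182. The median SD between replicates in these ranges was 0.205 for lncRNAs and 0.147 for coding genes on the log2 scale, and the FST versus CTRL comparison gave median absolute changes of 0.0878 and 0.0693.

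**Figure D1:**
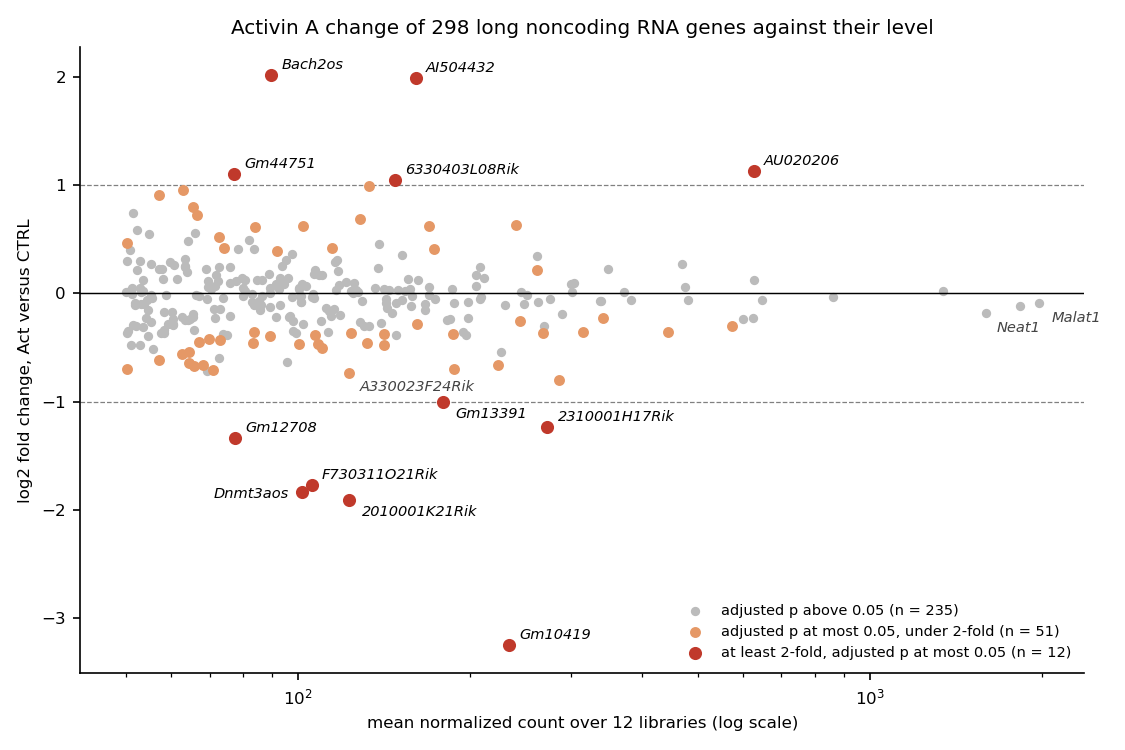
Log2 fold change of Act versus CTRL (vertical axis) against the mean normalized count over the 12 libraries (horizontal log axis) for 298 lncRNA genes, 1 point per gene. The 12 DEGs (red) are named, 51 further genes passed the adjusted p under 2-fold (orange), and the abundant Malat1 and Neat1 sit close to 0.

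Bach2os had the largest rise. It is transcribed from the strand opposite Bach2 (chr4:32559680-32571708, minus strand, GRCm38), which encodes a transcriptional repressor best known from lymphocytes, and shares 24.6% of its exonic bases with that gene. Its normalized counts were 193, 220 and 249 in Act, 47, 64 and 51 in CTRL, 37, 32 and 39 in Act+FST and 46, 53 and 46 in FST. All 3 Act libraries lay above the 9 others, which spanned 32 to 64 (log2 fold change 2.02, SE 0.15, limma adjusted p = 2.87e-06, a 4.04-fold rise). The level rule was met through the Act libraries, since its mean without them was 46.1. Bach2 itself moved the same way, with 278, 297 and 255 in Act, 89, 89 and 75 in CTRL, 75, 64 and 50 in Act+FST and 77, 78 and 57 in FST (log2 fold change 1.70, SE 0.16, limma adjusted p = 1.43e-05). The library kit kept strand and reads that fell on several genes were dropped in counting, but the strand setting of the counting was not given in the sources used here, so reads from the 2 strands of such pairs cannot be told apart.

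AI504432 (chr3:107039504-107054347, plus strand), a lincRNA for which no role is given here, rose 3.97-fold. Its normalized counts were 382, 323 and 407 in Act, 102, 97 and 79 in CTRL, 138, 76 and 102 in Act+FST and 86, 70 and 63 in FST. Every Act library lay above 300 and every other library below 140 (log2 fold change 1.99, SE 0.19, limma adjusted p = 1.80e-05). The gene starts 1434 bases beyond the end of Kcna3, which encodes the voltage-gated potassium channel Kv1.3 and lies on the same strand. Kcna3 had low counts, with 62, 44 and 53 in Act, 9, 11 and 7 in CTRL, 21, 8 and 10 in Act+FST and 14, 8 and 9 in FST, and rose too (log2 fold change 2.44, SE 0.34, limma adjusted p = 0.000291).

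AU020206 (chr7:75769038-75782099, minus strand) had the highest level among the 5 rises, at a mean of 196 normalized counts per kilobase of exon. The libraries gave 1083, 1019 and 1125 in Act, 494, 534 and 448 in CTRL, 466, 502 and 499 in Act+FST and 445, 431 and 462 in FST. The Act libraries stood at 1019 or more and the others at 534 or less, with the smallest standard error of the 12 DEGs (log2 fold change 1.13, SE 0.06, limma adjusted p = 4.27e-07). The nearest tested coding gene, Akap13, the gene of a protein kinase A anchoring protein 14429 bases away, had a log2 fold change of 0.11 (adjusted p = 0.306, and 0.0495 with the block).

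The remaining rises were smaller. 6330403L08Rik (chr5:138995056-139000577, plus strand) runs opposite to Pdgfa, the gene of a growth factor for mesenchymal cells, and shares 14.7% of its exonic bases with it. Its normalized counts were 226, 240 and 269 in Act, 121, 106 and 127 in CTRL, 115, 124 and 122 in Act+FST and 94, 115 and 112 in FST. The Act values did not overlap with any other group (log2 fold change 1.05, SE 0.10, limma adjusted p = 2.10e-05), and Pdgfa had 272, 258 and 304 in Act and 151, 168 and 137 in CTRL (log2 fold change 0.87, SE 0.09, limma adjusted p = 3.89e-05). Gm44751 (chr7:88311478-88315864, plus strand) had 133, 141 and 123 in Act, 75, 55 and 55 in CTRL, 77, 68 and 42 in Act+FST and 64, 54 and 39 in FST. Its Act libraries again lay above the rest, though its level was low and its standard error the widest of the rises (log2 fold change 1.10, SE 0.23, limma adjusted p = 0.00477). Ctsc, the gene of cathepsin C, lies 590 bases away and had a log2 fold change of 0.15 (adjusted p = 0.171, and 0.0255 with the block).

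**Figure D2:**
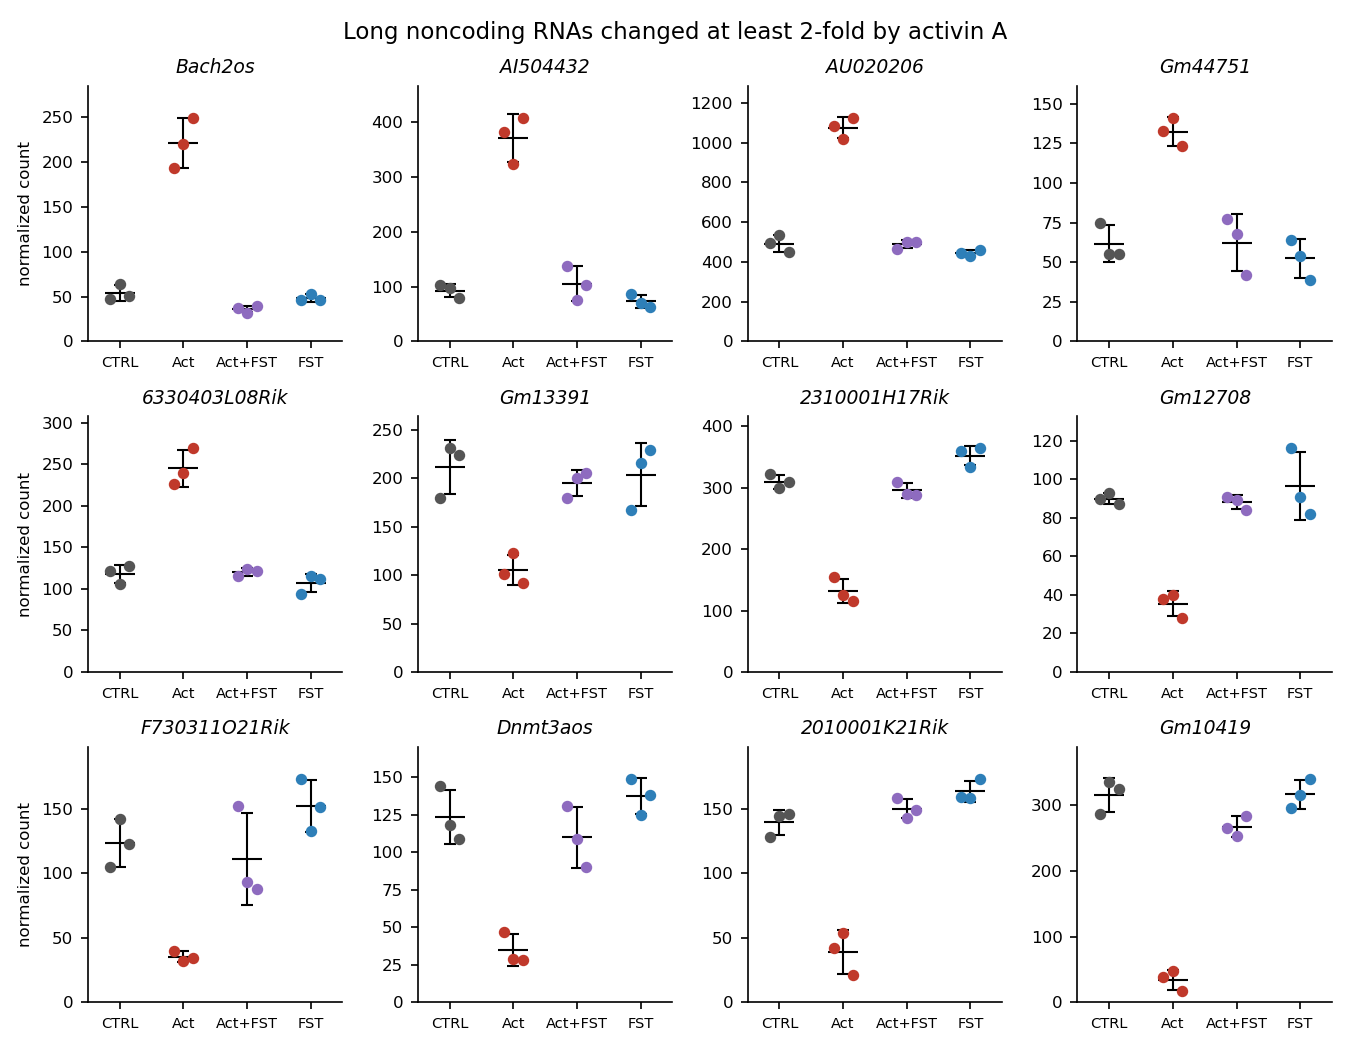
Normalized counts (vertical axes, starting at 0) of the 12 lncRNA DEGs of Act versus CTRL in every library. Points are libraries, 3 per group, and the black marks give the mean and SD. In each panel the 3 Act libraries stand apart from the 3 CTRL, 3 Act+FST and 3 FST libraries.

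Gm10419 had the largest fall. This lincRNA (chr5:108367769-108378239, plus strand) starts 153 bases from the start of Gm42517, a predicted protein-coding gene on the opposite strand, and shares 2.03% of its exonic bases with it. Its normalized counts were 38, 48 and 18 in Act, 286, 335 and 324 in CTRL, 265, 253 and 284 in Act+FST and 296, 315 and 340 in FST. No Act library reached 50 and no other library was under 250, a 9.52-fold difference between Act and CTRL (log2 fold change -3.25, SE 0.25, limma adjusted p = 3.69e-06). Gm42517 fell alongside, with 14, 13 and 3 in Act and 88, 103 and 100 in CTRL (log2 fold change -3.37, SE 0.39, limma adjusted p = 7.23e-05).

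Dnmt3aos (chr12:3859293-3862244, minus strand) lies antisense to Dnmt3a and overlaps it. Dnmt3a is the gene of a de novo DNA methyltransferase, and Dnmt3aos has been described in macrophage polarization. Dnmt3aos had 47, 29 and 28 in Act, 144, 118 and 109 in CTRL, 131, 109 and 90 in Act+FST and 149, 125 and 138 in FST. The Act libraries were at 47 or below and all others at 90 or above, a 3.57-fold fall (log2 fold change -1.84, SE 0.20, limma adjusted p = 4.27e-05). Dnmt3a had 1863, 1607 and 1611 in Act and 2251, 2103 and 2021 in CTRL (log2 fold change -0.33, SE 0.06, limma adjusted p = 0.00277). Of the exonic bases of Dnmt3aos, 9.60% are shared with Dnmt3a.

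2010001K21Rik (chr13:46979908-47011195, plus strand) had 42, 54 and 21 in Act, 128, 144 and 146 in CTRL, 158, 143 and 149 in Act+FST and 159, 158 and 173 in FST. Its highest Act value was under its lowest CTRL value by a wide margin (log2 fold change -1.91, SE 0.24, limma adjusted p = 0.000154), and its neighbour Nhlrc1, the gene of the ubiquitin ligase malin, was not called (log2 fold change -0.32, adjusted p = 0.317). F730311O21Rik (chr1:132342023-132349626, plus strand) had 40, 32 and 34 in Act, 105, 142 and 123 in CTRL, 152, 93 and 88 in Act+FST and 173, 133 and 151 in FST. Act stood apart here too, while the Act+FST and FST libraries varied more, each highest in replicate 1 (log2 fold change -1.77, SE 0.20, limma adjusted p = 5.31e-05). Its neighbour Tmcc2 had a log2 fold change of -0.11 (adjusted p = 0.526).

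Gm12708 (chr4:95193313-95209727, plus strand) lies 141091 bases from Jun, its nearest tested coding gene. It had 38, 40 and 28 in Act, 90, 93 and 87 in CTRL, 91, 89 and 84 in Act+FST and 116, 91 and 82 in FST. The Act libraries held 40 at most and the others at least 82 (log2 fold change -1.34, SE 0.16, limma adjusted p = 7.74e-05), and Jun, an AP-1 subunit, fell too (log2 fold change -0.44, SE 0.11, limma adjusted p = 0.0106). 2310001H17Rik (chr6:129208412-129238725, minus strand) had 154, 126 and 116 in Act, 322, 299 and 309 in CTRL, 310, 289 and 288 in Act+FST and 359, 334 and 364 in FST. It had the smallest adjusted p of the falls (log2 fold change -1.24, SE 0.09, limma adjusted p = 2.32e-06), and Clec2d, the gene of a C-type lectin 21878 bases away, fell by 0.50 on the log2 scale (adjusted p = 0.00725). Gm13391 (chr2:6472000-6478619, plus strand) had 101, 123 and 92 in Act, 180, 231 and 224 in CTRL, 180, 200 and 206 in Act+FST and 167, 216 and 229 in FST. It lay at the fold threshold, with a fold of 2.00 (log2 fold change -1.002, SE 0.14, limma adjusted p = 0.000303).

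Below 2-fold, 17 lncRNAs rose and 34 fell at the adjusted p, with log2 fold changes between -0.80 and 0.99. Some of them were singled out after their values were seen. 9330175E14Rik, which overlaps Nlrc5 on the opposite strand, a regulator of MHC class I genes, had 133, 217 and 184 in Act, 76, 117 and 75 in CTRL, 130, 172 and 154 in Act+FST and 121, 100 and 117 in FST. Its Act values exceeded all CTRL values but overlapped with Act+FST (log2 fold change 0.99, SE 0.20, limma adjusted p = 0.00368). Plxna4os1, antisense to the semaphorin receptor gene Plxna4, had 194, 192 and 192 in Act, 125, 114 and 119 in CTRL, 131, 103 and 88 in Act+FST and 114, 86 and 80 in FST. Its Act libraries were nearly equal and above all others (log2 fold change 0.69, SE 0.15, limma adjusted p = 0.00565), while Plxna4 itself was not called (log2 fold change 0.74, adjusted p = 0.418). Among the falls, AU022793 had 169, 203 and 166 in Act, 264, 342 and 335 in CTRL, 282, 348 and 372 in Act+FST and 272, 335 and 347 in FST. Here too Act stood below every other library (log2 fold change -0.80, SE 0.13, limma adjusted p = 0.00108).

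The next comparisons asked whether follistatin kept these lncRNAs at their untreated level. Act versus Act+FST called 5 lncRNAs higher and 7 lower, where the rule called 2.72% and 3.11% of all genes tested. It shares the Act libraries with the first comparison, so the values are set side by side. The 5 higher were the same 5 genes, with Bach2os at 2.58, AI504432 at 1.84, AU020206 at 1.14, Gm44751 at 1.12 and 6330403L08Rik at 1.02 on the log2 scale. Of the 7 lower, 6 were falls of the first comparison, with Gm10419 at -3.02, 2010001K21Rik at -2.01 and Dnmt3aos at -1.66. Gm13391 was under 2-fold here (-0.89), and C030034L19Rik, which overlaps the zinc finger gene Zfp704, took its place. C030034L19Rik had 95, 149 and 111 in Act, 155, 212 and 208 in CTRL, 224, 243 and 248 in Act+FST and 206, 194 and 204 in FST. Its Act+FST values were the highest of the 4 groups, and the change was -1.03 against Act+FST (SE 0.15, limma adjusted p = 0.000399) and -0.70 against CTRL (adjusted p = 0.00529).

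In FST versus CTRL, Act+FST versus FST and Act+FST versus CTRL, limma called 0 of the 298 lncRNAs and 0% of all genes tested, by the DEG rule and by the adjusted p alone. At an unadjusted limma p under 0.05, Act+FST had 7 lncRNAs higher and 2 lower than CTRL, beside 357 and 298 of 14318 genes tested. FST had 1 higher and 3 lower than CTRL, beside 165 and 134 of the genes tested. Act+FST had 4 higher and 7 lower than FST, beside 229 and 273. Over the 12 activin A DEGs the median absolute log2 fold change against CTRL was 1.56 in Act, while it was 0.11 in Act+FST and 0.15 in FST. The 12 genes were chosen by their change in Act, so a large Act value was set by the rule. These medians are a description. The largest difference from CTRL among these 12 with both agents present was that of Bach2os, which had 37, 32 and 39 in Act+FST and 47, 64 and 51 in CTRL (log2 fold change -0.56, limma adjusted p = 0.679, and 0.103 with the block). With the block 1 lncRNA was higher (9330175E14Rik) and 1 lower (Gm15513, log2 fold change -0.65) at the adjusted p in Act+FST than in CTRL. The lncRNA DEGs stayed at 0. Over the 14318 genes tested, the block called 40 higher and 40 lower at the adjusted p, with 4 and 2 DEGs. Across all 298, 9330175E14Rik differed most between Act+FST and CTRL (log2 fold change 0.78, adjusted p = 0.615, and 0.0469 with the block).

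The change that activin A made without follistatin was also tested against the change it made with follistatin, as the difference of the 2 log2 fold changes. By this test 2 lncRNAs had a higher and 5 a lower activin A change without follistatin, at a difference of at least 2-fold, beside 1.34% and 1.31% of all genes tested. Bach2os differed by 2.43 (SE 0.21, limma adjusted p = 0.000121) and AI504432 by 1.497 (adjusted p = 0.00571). Gm10419, 2010001K21Rik, Dnmt3aos, F730311O21Rik and Gm12708 had differences of -3.01, -1.79, -1.505, -1.28 and -1.23. AU020206 stood at the threshold with 1.00 (adjusted p = 0.000124), while the difference for Gm44751 did not pass (0.87, adjusted p = 0.146, and 0.0123 with the block).

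**Figure D3:**
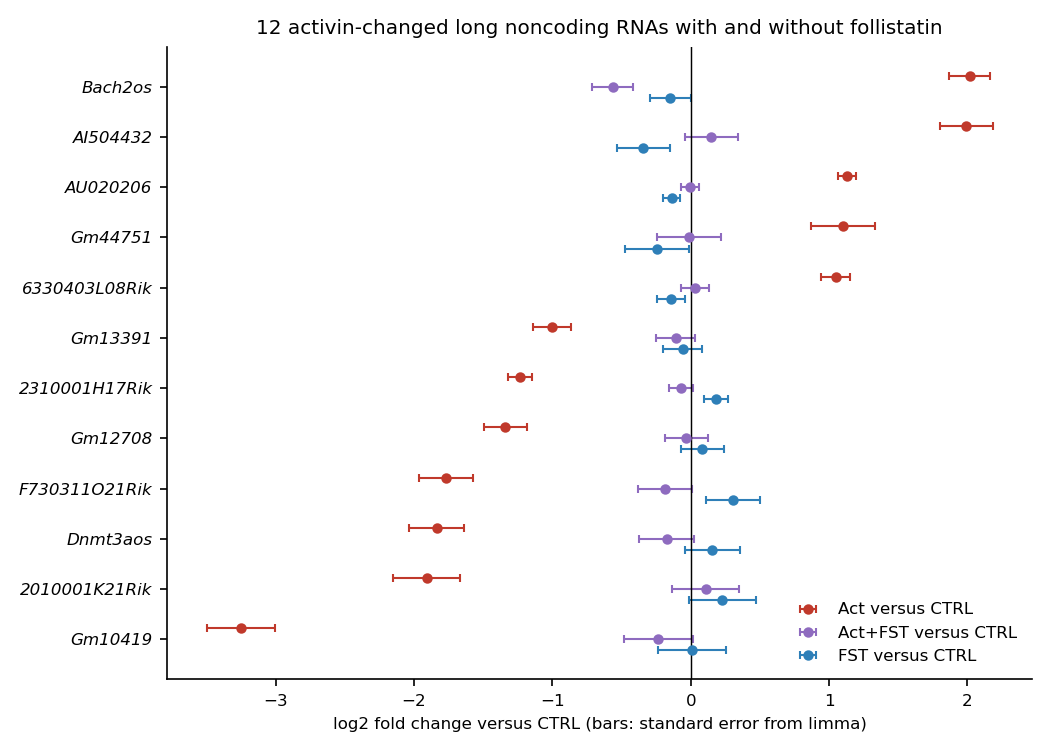
Log2 fold changes of the 12 lncRNA DEGs against CTRL (horizontal axis, bars give the standard error from limma) in Act (red), Act+FST (purple) and FST (blue). The Act points lie between -3.25 and 2.02 and, by the rule that chose the genes, at least 1 from 0. All Act+FST and FST points lie within 0.565 of 0.

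Promoter sequences are printed for 5 of the DEGs, because the SMAD proteins, which carry the activin A signal, bind DNA at promoters and enhancers. The windows come from RefSeq (GRCm38.p6), hold 250 bases before and 50 after the start site, and read 5' to 3' on the gene's strand. The SMAD motif CAGAC is in capitals, and so is its reverse complement GTCTG.
Bach2os, chr4:32571613-32571912, minus strand: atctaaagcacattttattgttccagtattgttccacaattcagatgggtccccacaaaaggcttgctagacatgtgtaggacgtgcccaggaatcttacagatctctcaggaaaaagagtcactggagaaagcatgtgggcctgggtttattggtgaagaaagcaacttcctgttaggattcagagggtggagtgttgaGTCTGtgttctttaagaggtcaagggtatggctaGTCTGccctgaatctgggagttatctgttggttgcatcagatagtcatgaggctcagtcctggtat
AU020206, chr7:75782071-75782370, minus strand: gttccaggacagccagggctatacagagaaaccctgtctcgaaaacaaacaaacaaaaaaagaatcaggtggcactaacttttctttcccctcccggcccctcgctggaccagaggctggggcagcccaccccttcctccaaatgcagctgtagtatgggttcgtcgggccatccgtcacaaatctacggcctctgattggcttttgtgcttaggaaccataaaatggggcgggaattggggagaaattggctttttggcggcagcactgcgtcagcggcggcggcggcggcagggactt
Gm10419, chr5:108367687-108367986, plus strand: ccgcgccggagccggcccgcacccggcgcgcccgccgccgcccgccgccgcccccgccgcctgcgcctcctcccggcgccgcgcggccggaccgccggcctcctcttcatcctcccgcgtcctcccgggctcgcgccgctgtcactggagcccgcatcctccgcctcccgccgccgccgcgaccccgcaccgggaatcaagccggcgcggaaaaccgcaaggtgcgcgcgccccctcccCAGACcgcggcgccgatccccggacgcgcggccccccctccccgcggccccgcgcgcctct
Dnmt3aos, chr12:3862195-3862494, minus strand: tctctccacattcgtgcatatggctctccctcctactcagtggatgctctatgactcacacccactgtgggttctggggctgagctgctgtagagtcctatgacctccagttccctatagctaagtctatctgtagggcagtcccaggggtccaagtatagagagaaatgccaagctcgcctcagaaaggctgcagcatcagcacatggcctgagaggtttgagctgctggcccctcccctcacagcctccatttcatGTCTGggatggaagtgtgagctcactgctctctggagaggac
Gm12708, chr4:95193054-95193353, plus strand: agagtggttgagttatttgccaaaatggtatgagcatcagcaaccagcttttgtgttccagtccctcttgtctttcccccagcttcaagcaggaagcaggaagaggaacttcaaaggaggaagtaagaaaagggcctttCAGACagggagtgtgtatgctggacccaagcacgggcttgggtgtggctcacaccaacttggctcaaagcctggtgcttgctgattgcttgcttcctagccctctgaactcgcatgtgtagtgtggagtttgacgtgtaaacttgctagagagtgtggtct
The RefSeq start sites lie 46, 21, 168, 0 and 9 bases, in this order, from the gene starts of the annotation used for the other coordinates.

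The window of Bach2os held 2 matches to CAGAC on either strand and that of AU020206 held 0, while those of Gm10419, Dnmt3aos and Gm12708 held 1 each. A window was given for 8 of the 12 DEGs, and 1 of the 2 rises and 4 of the 6 falls held the motif. Over all 27025 genes with a window, 49.7% held CAGAC and 16.1% held it at least 2 times, and 48.9% of the 182 lncRNAs with a window held it. The Gm10419 window had a GC content of 84.0% and that of Bach2os 45.3%. GAGGAAGT, a motif of the myeloid factor PU.1, was found on either strand in the windows of F730311O21Rik and Gm12708, in 7.69% of the 182 lncRNA windows and in 3.28% of all. The AP-1 motif TGANTCA was found in the window of Dnmt3aos, in 6.04% of the lncRNA windows and in 7.93% of all. These matches describe the letters of the windows only.

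Many of the lncRNAs lie beside or across coding genes. Of the 298, 138 overlap their nearest tested coding gene, and the median distance was 77.5 bases. Exonic bases were shared with a gene on the opposite strand by 141 lncRNAs and with one on the same strand by 45, while 129 shared none. The nearest coding gene passed the adjusted p in Act versus CTRL for 77 of the 298 (25.8%), beside 22.2% of the 12015 protein-coding genes tested, and in the same direction for 53 of these. For the 22 lncRNAs that rose, the coding neighbour was called for 13 and had the same direction for 12, with Ms4a8a beside AW112010 as the exception. For the 41 that fell it was called for 12, with 9 in the same direction. For the 12 DEGs it was called for 7, all in the same direction. For the 235 lncRNAs not called, the neighbour was called for 52, with 32 in the same direction. Across the 298 pairs the log2 fold changes had a Spearman rank correlation of 0.32, and 0.35 over the 129 pairs in which the lncRNA shared no exonic base. This is a description across genes of the same libraries, which are not independent replicates.

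A few more pairs were named after their values were seen. Gm5086, which lies 306937 bases from Enc1, had 333, 345 and 340 in Act and 200, 240 and 219 in CTRL (log2 fold change 0.63, SE 0.10, limma adjusted p = 0.000572), and Enc1, the gene of an actin-binding protein, rose as well (log2 fold change 0.94, SE 0.06, limma adjusted p = 9.55e-07). E230013L22Rik, annotated as a bidirectional promoter lncRNA and overlapping the small GTPase gene Rab20, had 84, 105 and 102 in Act and 54, 72 and 43 in CTRL (log2 fold change 0.80, SE 0.20, limma adjusted p = 0.015), and Rab20 had a log2 fold change of 0.58 (adjusted p = 0.00186). The call of E230013L22Rik was lost without CTRL replicate 3 (adjusted p = 0.0688), Act replicate 2 (0.0576) or Act replicate 3 (0.0551). In both pairs the Act libraries were all above those of CTRL.

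**Figure D4:**
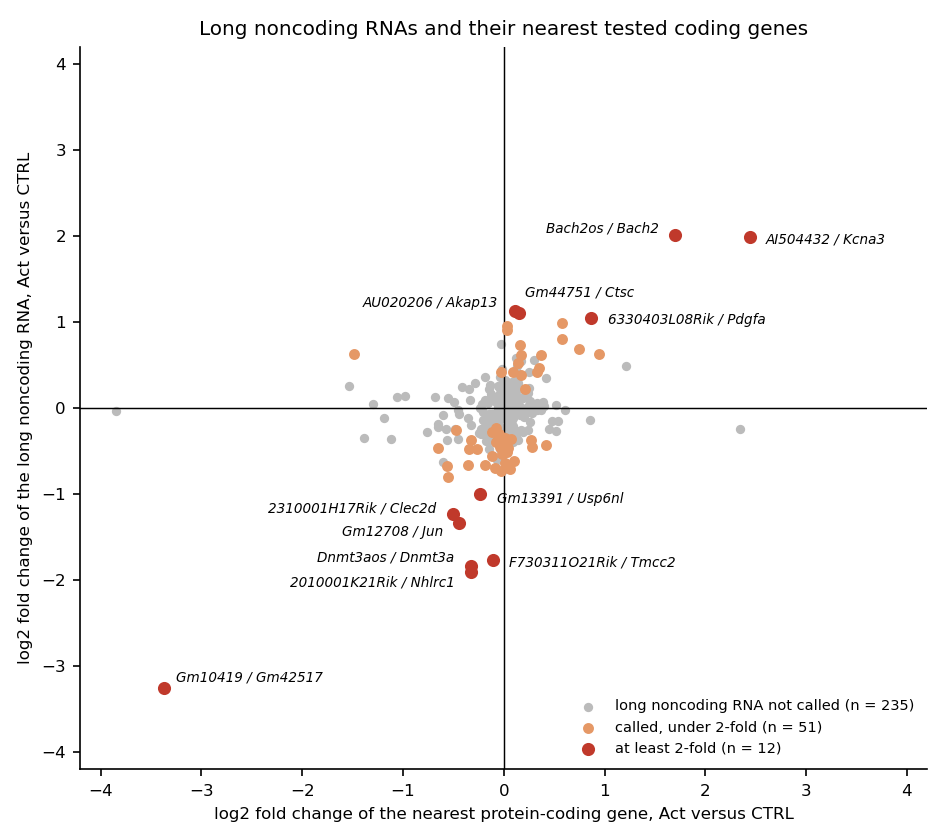
Log2 fold change of Act versus CTRL for 298 lncRNA genes (vertical axis) against that of the nearest tested protein-coding gene (horizontal axis), 1 point per lncRNA. The 12 DEGs are named with their neighbours: Bach2os, AI504432 and 6330403L08Rik lie up and right with Bach2, Kcna3 and Pdgfa, Gm10419 lies down and left with Gm42517, and AU020206 and Gm44751 rose beside neighbours near 0.

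LncRNAs with well known nuclear roles were examined next. Of 25 lncRNAs listed for nuclear bodies and chromatin, 11 were among the 298, and 2 of them passed the adjusted p in Act versus CTRL, both lower, where 21.9% of all genes with a mean of at least 50 passed. The median log2 fold change of the 11 was -0.09, with a range from -0.48 to 0.30. Trp53cor1 (lincRNA-p21), a p53 target upstream of Cdkn1a, had 108, 84 and 114 in Act, 127, 136 and 163 in CTRL, 158, 142 and 125 in Act+FST and 177, 182 and 180 in FST. Its Act values were below all CTRL values, while FST had the highest (log2 fold change -0.48, SE 0.13, limma adjusted p = 0.0203). Cdkn1a, the gene of the cell cycle inhibitor p21, had 797, 735 and 833 in Act and 993, 1012 and 990 in CTRL (log2 fold change -0.34, SE 0.05, limma adjusted p = 0.000334). Peg13, an imprinted lncRNA inside Trappc9, had 513, 503 and 455 in Act and 628, 606 and 573 in CTRL (log2 fold change -0.30, SE 0.09, limma adjusted p = 0.0288). The call of Trp53cor1 was lost without Act replicate 2 (adjusted p = 0.0831) or CTRL replicate 3 (0.0932), and that of Peg13 without CTRL replicate 1 (0.0828) or 2 (0.0759), or without Act replicate 2 (0.0556) or 3 (0.113).

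Malat1 had 2179, 1950 and 1722 in Act, 2257, 2042 and 1917 in CTRL, 1981, 2067 and 1648 in Act+FST and 2111, 2064 and 1750 in FST. Its groups overlapped, and its log2 fold change was -0.09 (adjusted p = 0.625). Neat1 had 1359, 1516 and 1539 in Act, 1535, 1751 and 1713 in CTRL, 1387, 1862 and 1617 in Act+FST and 1449, 1779 and 1628 in FST. Its Act and CTRL libraries overlapped and replicate 1 was the lowest in each group (-0.18, adjusted p = 0.258), while the fit with the replicate block called it lower (adjusted p = 0.00767). Oip5os1 (-0.11, adjusted p = 0.118) was likewise called only with the block (adjusted p = 0.0383). Firre, Dleu2, Kcnq1ot1, Ftx, Jpx and Airn had log2 fold changes between -0.29 and 0.30 and were not called in either fit. Jpx and Ftx are activators of Xist, and Kcnq1ot1 and Airn are imprinted RNAs that silence their neighbours in cis.

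The proteins that work with these RNAs were examined as lists. Beside the counts below, 11.5% of all genes with a mean of at least 50 rose and 10.4% fell at the adjusted p. Of 10 paraspeckle proteins, 2 rose and 0 fell, namely Pspc1, with 387, 411 and 365 in Act and 262, 256 and 239 in CTRL (log2 fold change 0.62, SE 0.06, limma adjusted p = 2.10e-05), and Sfpq (log2 fold change 0.13, SE 0.04, limma adjusted p = 0.0367). Cpsf6 was called with the block only (log2 fold change 0.10, adjusted p = 0.0874, and 0.0328 with the block). The list had a median log2 fold change of 0.05, against 0.004 over all genes tested. None of the 7 members of Polycomb repressive complex 2, to which several lncRNAs are known to bind, was called (median 0.03, range -0.08 to 0.12). Of 10 nonsense-mediated decay genes, which degrade many snoRNA host transcripts, 1 rose, namely Smg5 (log2 fold change 0.38, SE 0.05, limma adjusted p = 0.000274), and 0 fell. Upf1 was called with the block only (log2 fold change 0.10, adjusted p = 0.0539, and 0.0257 with the block).

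None of the 10 snoRNA host genes among the 298 passed the adjusted p, with a median log2 fold change of 0.03 and a range from -0.31 to 0.22. These are carrier transcripts, such as Gas5 and the Snhg genes, whose introns yield the guide RNAs of ribosomal RNA modification. The farthest from 0 were Snhg15, with 96, 117 and 123 in Act and 117, 160 and 140 in CTRL (-0.31, adjusted p = 0.15, and 0.0191 with the block), and Zfas1 (0.22, adjusted p = 0.121). Gas5 had a log2 fold change of 0.09 (adjusted p = 0.536). Of 10 snoRNP proteins, which bind snoRNAs, Dkc1 rose and 0 fell, where 11.5% and 10.4% of genes with a mean of at least 50 did. Dkc1, the pseudouridine synthase dyskerin, had 198, 197 and 195 in Act and 150, 122 and 118 in CTRL, without overlap (log2 fold change 0.60, SE 0.10, limma adjusted p = 0.000954).

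**Figure D5:**
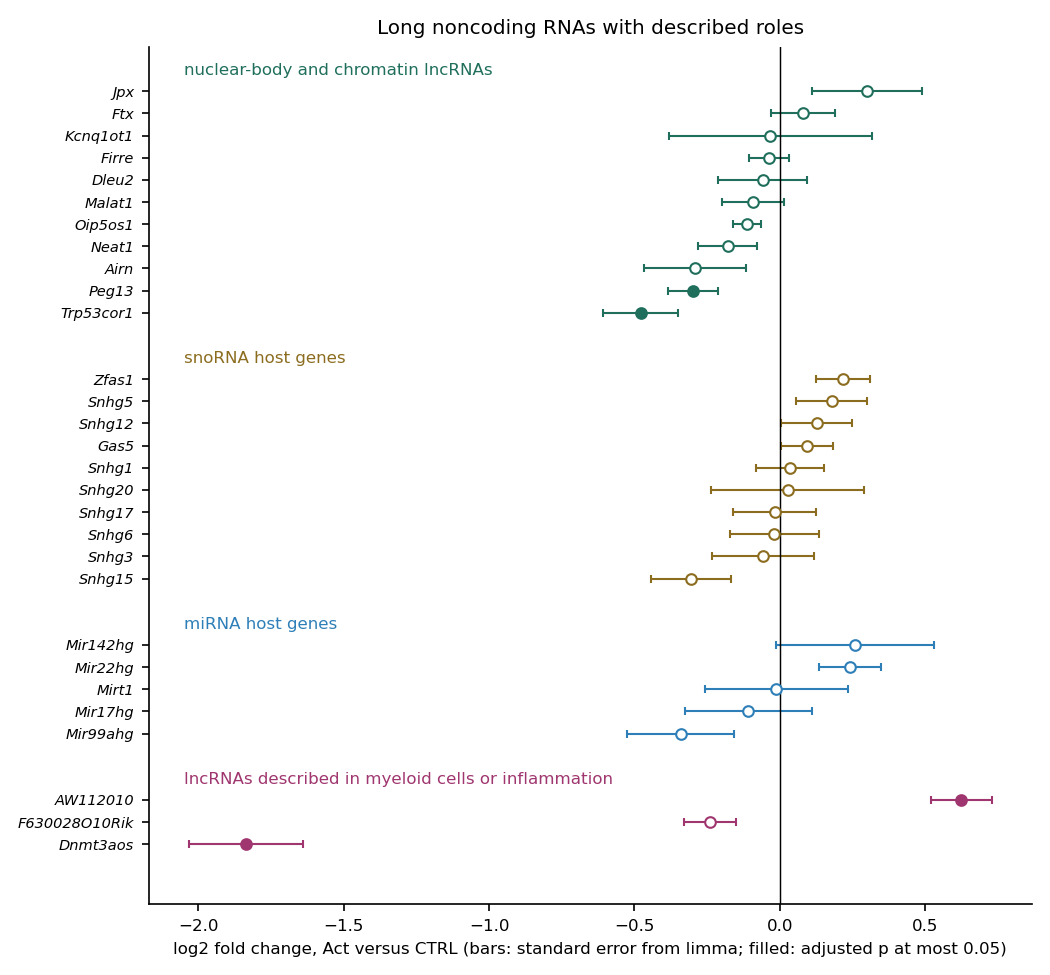
Log2 fold change of Act versus CTRL (horizontal axis, bars give the standard error from limma) for the 29 lncRNAs of 4 lists of described roles. Filled points passed the adjusted p of 0.05: Trp53cor1 and Peg13 in the first list, none among the 10 snoRNA and 5 miRNA host genes, and Dnmt3aos and AW112010 in the last.

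Sequences of miRNAs carried by the lncRNAs are given because the host transcript is their precursor. RefSeq (GRCm38.p6) placed 23 miRNA genes with 42 mature miRNAs inside 13 of the 298 lncRNAs. The seed of each, bases 2 to 8 of the mature miRNA, is in capitals.
mmu-miR-29b-3p: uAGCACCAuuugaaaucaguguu
mmu-miR-29c-3p: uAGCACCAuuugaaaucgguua
mmu-miR-223-3p: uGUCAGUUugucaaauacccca
mmu-miR-22-3p: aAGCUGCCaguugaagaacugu
mmu-miR-17-5p: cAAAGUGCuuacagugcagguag
mmu-miR-20a-5p: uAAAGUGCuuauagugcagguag
The pair miR-29b-3p and miR-29c-3p share the seed AGCACCA and the host A330023F24Rik, and miR-17-5p and miR-20a-5p share the seed AAAGUGC and the host Mir17hg. The miR-29 family is known to repress collagen and other extracellular matrix mRNAs, miR-223 is typical of myeloid cells, and the miR-17 cluster promotes proliferation. The libraries measured host transcripts, not mature miRNAs.

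A330023F24Rik (chr1:194976375-195037904, plus strand) was the only one of the 13 hosts that passed the adjusted p in Act versus CTRL, and it was singled out after its values were seen. The counts of this host were 67, 86 and 102 in Act, 104, 179 and 147 in CTRL, 118, 166 and 125 in Act+FST and 115, 132 and 133 in FST. The Act values lay below all CTRL values, narrowly so (102 against 104), and below all values of Act+FST and FST (log2 fold change -0.73, SE 0.20, limma adjusted p = 0.0215, and -0.68 against Act+FST, adjusted p = 0.0294). The call against CTRL was lost without Act replicate 1 (limma adjusted p = 0.0882), Act replicate 2 (0.0518), CTRL replicate 2 (0.0929) or CTRL replicate 3 (0.0718). The call against Act+FST was lost without Act replicate 1 (0.118), Act replicate 2 (0.067) or Act+FST replicate 2 (0.115). The host of miR-223, F630028O10Rik, had 477, 519 and 547 in Act, 542, 664 and 621 in CTRL, 608, 716 and 621 in Act+FST and 573, 677 and 638 in FST. Its Act values reached into the CTRL range (log2 fold change -0.24, limma adjusted p = 0.0763, and 0.00139 in the blocked fit) and were below all Act+FST values (-0.33, adjusted p = 0.0173, and 0.0732 without Act replicate 1 or 0.0727 without Act+FST replicate 2).

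None of the 5 genes on the list of miRNA hosts passed the adjusted p in Act versus CTRL. Mir22hg had 217, 229 and 255 in Act and 165, 215 and 216 in CTRL (0.24, adjusted p = 0.14, and 0.023 with the block). Mir17hg, at a low level, had 43, 57 and 56 in Act and 43, 68 and 59 in CTRL (-0.11, adjusted p = 0.791). These groups overlapped for Mir17hg and lay next to each other for Mir22hg. Mir99ahg and Mir142hg had log2 fold changes of -0.34 and 0.26. Mirt1, listed by its symbol but known as a myocardial infarction transcript, carried no miRNA of the RefSeq table (-0.01 against CTRL, and 0.50 against Act+FST, adjusted p = 0.18, and 0.0124 with the block). Of 10 miRNA processing genes, Ago4 fell by 0.15 on the log2 scale (limma adjusted p = 0.0469) and 0 rose. Among genes with a mean of at least 50, 10.4% fell and 11.5% rose at the adjusted p. With the block Dicer1, the nuclease that cuts miRNA precursors, was called higher (log2 fold change 0.15, adjusted p = 0.16, and 0.0149 with the block), and against Act+FST it was called without the block (0.22, adjusted p = 0.0368).

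Of 16 lncRNAs listed as described in myeloid cells or inflammation, 3 were among the 298, namely Dnmt3aos, F630028O10Rik and AW112010. AW112010, an RNA induced in activated macrophages whose transcript is known to be translated, had 219, 193 and 248 in Act, 155, 143 and 128 in CTRL, 162, 187 and 159 in Act+FST and 152, 147 and 139 in FST. Its Act libraries were above all others, and Act+FST lay between Act and CTRL (log2 fold change 0.62, SE 0.10, limma adjusted p = 0.00114, and 0.37 against Act+FST, adjusted p = 0.0231). The second of these calls was lost without any 1 of Act replicates 1 and 3 and Act+FST replicates 1 and 3, with adjusted p between 0.0604 and 0.103. Annotations differed in coding potential: RefSeq matched 211 of the 298 genes, of which 203 were lncRNA and 8 protein_coding, and 87 had no match. The 8 include Trerf1 (mean 627) and Ifi30 (476), which the rule kept by their Ensembl biotype processed_transcript. Conversely, Tug1 (1153) and Sra1 (258), listed for nuclear bodies and chromatin, were outside the 298 because their Ensembl biotype was protein_coding.

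The lncRNAs also varied with the replicate number. In 81 of the 298 (27.2%), replicate 1 was the lowest of its group in all 4 groups, against 9.82% of all genes with a mean of at least 50 and 8.59% of the coding genes with means of 50 to 200. For replicates 2 and 3 the numbers were 6 and 8. Phtf1os, an antisense RNA, showed the largest gap, with replicate 1 at 25, 24, 25 and 32 in CTRL, Act, Act+FST and FST, and the other 2 replicates between 55 and 79. The imprinted Kcnq1ot1 had 71, 106 and 104 in Act, 50, 137 and 122 in CTRL, 80, 131 and 107 in Act+FST and 58, 105 and 98 in FST. The first of each triplet was the lowest, and the groups overlapped. What set replicate 1 apart was not given in the sources used here. Since each group held 1 library of each number, the comparisons between groups were balanced for it. The main fit still left this variation in the spread between replicates, and several lncRNAs above were called only with the block.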

How the data were processed

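The RNA-seq data held 12 libraries of BMDMs, 3 for each of 4 groups, which were assigned from the sample labels. Libraries were made from total RNA with a stranded mRNA kit, and the reads were trimmed with Trimmomatic 0.39, aligned with STAR 2.7.9a to mm10 and counted per gene with featureCounts 2.0.2, as far as the submitters' processing notes and the study's methods state. Reads on several genes or several places were dropped. The strand setting of the counting was not given in the sources used here. The unit of the values is a signal: the authors deposited gene counts that were scaled for each library and rounded to whole numbers (normalized counts), so a count model was not used. Totals were 5643708 to 5955400 per library and the highest value of any gene was 6378. The original depth is unknown.

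Genes with a mean of at least 5 (14318 of 18376) were fitted with limma 3.58.1 in R 4.3.3 (moderated variances that follow the mean) on log2(normalized count + 1), with 4 group means over 12 libraries, two-sided tests and Benjamini-Hochberg adjustment over all genes tested. DEGs had a fold change of at least 2 and an adjusted p of at most 0.05. Fold changes on this scale understate those of low genes. On simulated data 195 of 200 genes with a 3-fold change (97.5%) were called among 14533 genes, with 0 false calls. The simulation drew independent noise for each library, without a shared replicate effect. It changed only genes with a CTRL mean of at least 50. It thus checks that the fit runs and does not give the recovery or error rate in these data.

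Groups share the replicate numbers 1 to 3 in the labels. Libraries with the same number deviated together from their group means, with correlations between 0.157 and 0.481 in all 18 pairs, so the numbers were taken to pair the libraries and a fit with the number as a block was run as an alternative. The other alternatives were pseudocounts of 0.5 and 5, other filters, scalings, thresholds and levels, and leaving out each library.

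Named were the lncRNA DEGs without overlap (up to 8 in each direction for Act versus CTRL and 3 for Act versus Act+FST), the 5 with the highest means, those next to the level of 50, members of role lists, and the nearest tested coding genes. The genes, lists and rule were chosen with earlier results of these data known. Exons and neighbours came from GENCODE M21 (GRCm38), in which 18359 gene identifiers and all 298 lncRNAs were found. Promoters and miRNAs came from RefSeq (GRCm38.p6). All columns of the table were matched to samples, and no library was left out. One marker gene of the lists is not reported here.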

Additional observations from a re-analysis of the deposited data

Results flagged for a closer look

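For 7 lncRNAs the activin A change differed between cells without and with follistatin, by the limma test of the difference itself over all genes tested. The differences of the log2 fold changes were 2.43 for Bach2os (adjusted p = 0.000121), 1.497 for AI504432 (0.00571), -3.01 for Gm10419 (0.000511), -1.79 for 2010001K21Rik (0.00807), -1.505 for Dnmt3aos (0.0066), -1.28 for F730311O21Rik (0.016) and -1.23 for Gm12708 (0.00548). With follistatin present, the activin A change (Act+FST versus FST) was -0.42 for Bach2os, 0.49 for AI504432, -0.24 for Gm10419, -0.12 for 2010001K21Rik, -0.33 for Dnmt3aos, -0.49 for F730311O21Rik and -0.11 for Gm12708, and none of these passed the adjusted p. Bach2os thus had opposite signs in the 2 comparisons, with the second not called.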

How the results depend on the processing

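The counts of lncRNA DEGs moved mainly with the thresholds. At a fold of 1.5, Act versus CTRL gave 15 higher and 17 lower, Act versus Act+FST 15 and 16, and the difference of activin A changes 5 and 9. At the adjusted p alone these were 22 and 41, 28 and 36, and 7 and 11. The shares of genes with a mean of at least 50 were 11.5% and 10.4%, 12.4% and 10.9%, and 4.63% and 2.99%. With a mean of at least 25 in place of 50, Act versus CTRL gave 19 and 16 and Act versus Act+FST 17 and 14. With a mean of at least 100 both gave 3 higher, and among lncRNAs with no shared exonic base both gave 3 higher, with 3 lower in the first and 2 in the second. Leaving out each library gave 4 to 7 higher and 6 to 8 lower in Act versus CTRL, 4 to 8 and 6 to 10 in Act versus Act+FST (8 higher without Act+FST replicate 2), and 2 to 4 and 5 to 9 for the difference (4 and 9 without CTRL replicate 1). Where a count moved, the cause was not tested beyond the smaller or larger set of genes that the setting itself makes. For the fold of 1.5, the other levels and the left-out libraries no shares over all genes are given. Those counts only describe the settings.

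With the replicate number as a block, Act versus CTRL gave 5 higher and 7 lower and Act versus Act+FST 5 and 8. The block moved, in Act versus Act+FST, the counts at the adjusted p alone to 44 and 63, beside 2094 and 1774 of the same 10634 genes. For the difference of activin A changes it moved them to 21 and 29, beside 1170 and 829. For 51 named lncRNAs, the 102 values of Act against CTRL and against Act+FST were computed again under 20 alternatives. The log2 fold changes of the 12 DEGs kept their sign under all 20. This does not extend to values near 0, such as that of Kcnq1ot1. Of these 102 values, 10 gained a call with the block, 0 lost one, and the block changed no other call among them. Quantile normalization added 3 calls, 2 of them for Oip5os1 (adjusted p = 0.0106 against CTRL) and 1 for Peg13 against Act+FST (0.0487). In the fit with only the 6 libraries compared, Trp53cor1 lost its calls (0.0509 against CTRL). Gm13391 kept at least 2-fold in Act versus CTRL under 14 of 20 alternatives, while Bach2os, AI504432, AU020206, Gm10419, Dnmt3aos, 2010001K21Rik, F730311O21Rik, Gm12708, 2310001H17Rik and Gm44751 were DEGs there under all 20 and 6330403L08Rik under 18 (17 against Act+FST).

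Totals of scaled counts do not show the original depth, and single values under 50, as in the Act libraries of Gm10419 and Gm12708, carry counting error that is part of the spread between replicates.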

Other observations

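Some listed lncRNAs lay under the level of 50. Morrbid, which is known to prolong the life of myeloid cells and lies near the pro-apoptotic gene Bcl2l11, had 71, 66 and 74 normalized counts in Act, 13, 26 and 29 in CTRL, 31, 24 and 50 in Act+FST and 32, 24 and 40 in FST. All Act values lay above the others (log2 fold change 1.67, limma adjusted p = 0.0026). Mir155hg, the host of the inflammatory miR-155, had 10, 13 and 22 in Act and 3, 10 and 4 in CTRL, and these overlapped (log2 fold change 1.34, adjusted p = 0.216). Hotairm1 and Mir181a-1hg had adjusted p-values of 0.958 and 0.571. Among all 801 lncRNA genes with means from 5 to under 50, 40 were higher and 38 lower in Act than in CTRL by the DEG rule (4.99% and 4.74%, beside 2.58% and 3.09% of all genes tested). The genes tested include 10634 with a mean of at least 50, of which only 1.52% and 1.9% were called. These shares are thus not matched for level and do not set low lncRNAs apart from other low genes.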
